A study of Mus musculus with 3 samples.

Results

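The miR-30 family was followed in miRNA sequencing libraries made from mouse bone marrow cultures at successive stages of osteoclast formation. Its members were chosen by name. They are the 5p arms of miR-30a, miR-30b, miR-30c, miR-30d and miR-30e and the 3p arms of miR-30a and miR-30e, 7 of the 899 mature miRNAs in the deposited tables. The tables also list 5 other miR-30 arms (miR-30b-3p, miR-30c-1-3p, miR-30c-2-3p, miR-30d-3p and miR-30f), which are given as company for the members.

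All cultures came from marrow of C57BL/6 mice aged 11 weeks, and each stage is 1 library. Mature osteoclasts (mOC) were made with the growth factor M-CSF at 30 ng/mL and the osteoclast-inducing cytokine RANKL at 100 ng/mL over at least 72 h. Preosteoclasts (pOC) were made with the same factors over at least 24 h. Their starting cells, bone marrow macrophages (BMM), had been grown in M-CSF at 50 ng/mL for 72 h. Every culture, the BMM included, received the bisphosphonate alendronate at 500 µM for 12 h, which the labels give as a means to make cells shed apoptotic bodies, while the series as a whole speaks of exosomes. The labels do not say which vesicle was sequenced, nor whether marrow was pooled over animals. In the tables both stages are compared with a library that carries only the letter R. No label says what R stands for, so it is treated as a library of unknown group and its raw counts were not used.

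A miRNA is a short RNA that guides silencing proteins to messenger RNAs, mostly through pairing of its seed, bases 2 to 8 from the 5′ end. Each hairpin precursor yields a 5p and a 3p arm, and for the miR-30 hairpins the 5p arm is the usual guide. The 5p arms of the miR-30 family share a common seed and are made in many tissues. In mouse bone they are known as brakes on osteoblast differentiation by repressing Smad1, a mediator of bone morphogenetic protein signals, and Runx2, the master transcription factor of bone-forming cells.

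RefSeq sequences (GRCm38.p6) were matched for 5 of the 7 members and are shown because the family is defined by its seed, and because the members differ by very few other bases. The seed is in capitals.

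mmu-miR-30a-5p: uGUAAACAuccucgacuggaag
mmu-miR-30e-5p: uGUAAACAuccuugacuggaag
mmu-miR-30c-5p: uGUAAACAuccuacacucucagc
mmu-miR-30a-3p: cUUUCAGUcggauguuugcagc
mmu-miR-30e-3p: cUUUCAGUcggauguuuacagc

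The 3 printed 5p members have the seed GUAAACA and the 2 printed 3p members the seed UUUCAGU. Of the mature mouse miRNAs in the RefSeq table, 4 carry GUAAACA. The fourth is miR-384-5p, which has no row in the deposited tables. From position 1 at the 5′ end, miR-30a-5p and miR-30e-5p differ by a single base (C13U, the miR-30a-5p base first), and miR-30a-3p and miR-30e-3p also by one (G18A). miR-30c-5p has the first 12 bases of miR-30a-5p and differs from it at 5 of the 22 positions compared. Near-copies can share reads, and no source used here says how reads with a mismatch were counted. The division of counts between miR-30a and miR-30e is therefore uncertain. miR-30b and miR-30d had no matched sequence, so whether they are near-copies too was not checked. The sums of miR-30a and miR-30e, for each arm, are given below beside the separate values.

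The hairpins of the 5 members with a matched sequence lie in pairs on 2 chromosomes, and those of miR-30b and miR-30d were not located here. Mir30a (chr1:23272269-23272339, plus strand) and Mir30c-2 (chr1:23291701-23291784, plus strand) are 19361 bases apart. In the GENCODE M21 annotation of GRCm38, Mir30c-2 lies in an exon of the long noncoding gene Gm27028, while no host gene is annotated over Mir30a. Mir30c-1 (chr4:120769534-120769622, minus strand) and Mir30e (chr4:120772606-120772697, minus strand) are 2983 bases apart. Both lie on the same strand in intron sequence of Nfyc, which encodes a subunit of the transcription factor NF-Y. The mature miR-30c-5p is identical from Mir30c-1 and Mir30c-2, so its counts cannot be divided between the hairpins. The hairpins of miR-30a and miR-30e are shown with the mature arms in capitals, since the balance of these arms is compared further on.

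Mir30a: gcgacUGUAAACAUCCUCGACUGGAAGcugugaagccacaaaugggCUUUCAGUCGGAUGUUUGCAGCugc
Mir30e: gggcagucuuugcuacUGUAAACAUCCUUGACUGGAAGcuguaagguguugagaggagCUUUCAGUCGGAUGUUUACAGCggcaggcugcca

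The mOC library held 7017707 counts and the pOC library 5430426, so that a count of 0 allows up to 0.427 CPM in mOC and 0.552 CPM in pOC (CPM, counts scaled to 1000000 per library). All 7 members had at least 750 counts in each library. With 1 library per stage no difference has a replicate check, and no p-value is given. Intervals are exact 95% binomial intervals of the counts. They cover counting error only and not the spread between cultures, and reads of 1 molecule copied by PCR are not independent. In bulk libraries such as these a lower level of a miRNA and a smaller share of material from the cells that make it cannot be told apart.

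The family took up much of both libraries. Its 7 members summed to 5.23% of the counts in mOC (5.21 to 5.25%), against 4.73% in pOC (4.71 to 4.74%). Nearly all of this was 5p arms, with 359844 counts in mOC and 252882 in pOC, a fold of 1.10 (1.096 to 1.107). The near-level sum covers 2 kinds of member: the most abundant pair, miR-30a-5p and miR-30d-5p, was level between the stages, and the 3 less abundant 5p members were each more than 1.8-fold higher in mOC.

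miR-30a-5p had 162999 counts in mOC and 122309 in pOC, which is 23227 CPM in mOC and 22523 CPM in pOC. It was the most abundant member and ranked 11th of all miRNAs in each library. The fold of mOC over pOC was 1.03 (1.02 to 1.04), and its log2 value of 0.04 turned to -0.016 when the 5 most abundant miRNAs were left out of the totals.

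miR-30d-5p had 137147 counts in mOC and 105600 in pOC, or 19543 CPM in mOC and 19446 CPM in pOC. Its fold of 1.005 had an interval that includes equality (0.997 to 1.01), and its sign likewise depends on the scaling. The sum of these leaders was 300146 counts in mOC and 227909 in pOC, or 42770 CPM in mOC and 41969 CPM in pOC, a fold of 1.02 (1.01 to 1.02).

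miR-30e-5p, the near-copy of miR-30a-5p printed above, had 35650 counts in mOC and 15070 in pOC. That is 5080 CPM in mOC and 2775 CPM in pOC, 1.83-fold higher in mOC (1.80 to 1.87). miR-30c-5p, made from 2 hairpins, had 16892 counts in mOC and 6920 in pOC, or 2407 CPM in mOC and 1274 CPM in pOC. Its fold of 1.89 (1.84 to 1.94) was the highest among the members. miR-30b-5p had 7156 counts in mOC and 2983 in pOC, 1020 CPM in mOC and 549 CPM in pOC. Its fold was 1.86 (1.78 to 1.94). The counting intervals of these 3 folds overlap.

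The 3p members were also higher in mOC. miR-30e-3p had 1720 counts in mOC and 750 in pOC, 245 CPM in mOC and 138 CPM in pOC, a fold of 1.77 (1.63 to 1.94). It lies on the same hairpin as miR-30e-5p, and their intervals overlap. miR-30a-3p had 5375 counts in mOC and 2991 in pOC, 766 CPM in mOC and 551 CPM in pOC, a fold of 1.39 (1.33 to 1.45). Its interval does not meet that of its partner miR-30a-5p. Summed, the near-copies miR-30a-3p and miR-30e-3p had 7095 counts in mOC and 3741 in pOC, a fold of 1.47 (1.41 to 1.53).

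**Figure D1:**
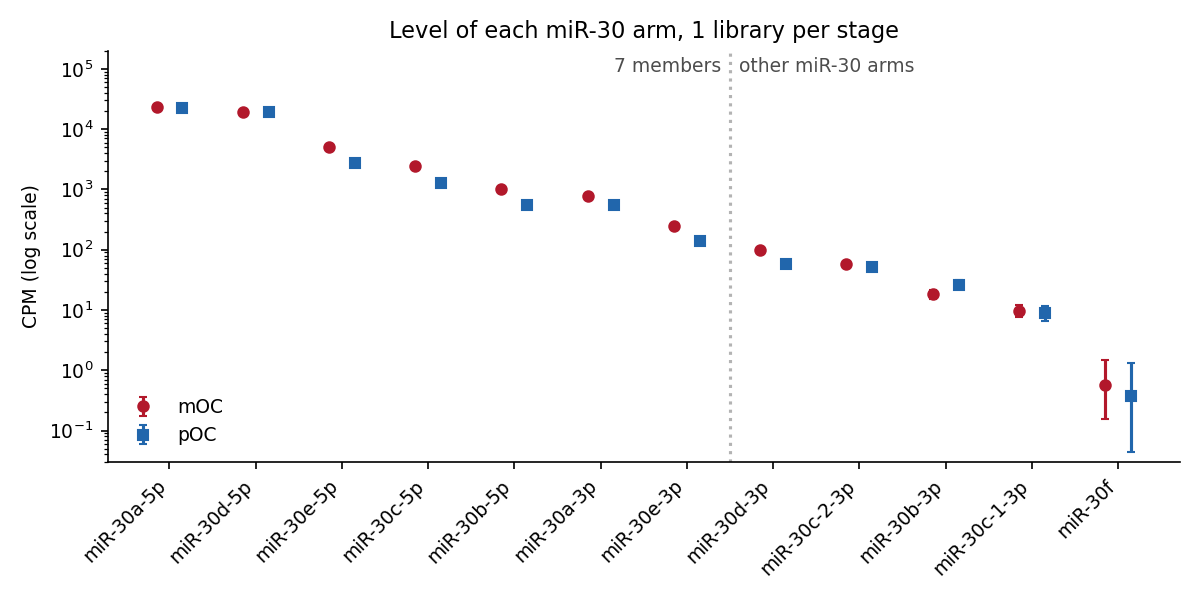
CPM on a log axis for each of the 12 miR-30 arms, mOC as circles and pOC as squares, with exact 95% binomial intervals of the counts; the 7 members stand left of the dotted line. miR-30a-5p and miR-30d-5p nearly coincide between the stages, at 19446 to 23227 CPM, while the other members lie higher in mOC.

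The members' levels stood in nearly the same order at both stages. From high to low in mOC this was miR-30a-5p, miR-30d-5p, miR-30e-5p, miR-30c-5p, miR-30b-5p, miR-30a-3p and miR-30e-3p. In pOC the only neighbours out of this order were miR-30a-3p and miR-30b-5p, with 2991 and 2983 counts, which do not differ beyond counting error. All neighbours in mOC differ beyond it. These are levels of mature miRNAs of 22 or 23 bases where a sequence was matched, and differences in how well single sequences are ligated and amplified enter any comparison between miRNAs, though less so the same miRNA between libraries.

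Of the 7 members, 4 were at least 1.5-fold higher in mOC (miR-30b-5p, miR-30c-5p, miR-30e-5p and miR-30e-3p), and 0 were 1.5-fold lower. Over the 560 miRNAs with at least 10 counts in both libraries together, 23.0% were 1.5-fold higher and 26.6% 1.5-fold lower. Among the 171 miRNAs with at least 1000 counts, as every member has, these shares were 25.1% higher and 12.9% lower. No member reached 2-fold in either direction, against 10.2% of the 560 higher and 15.2% lower. With the constants behind the authors' normalised counts in place of library totals, the same 4 members passed 2-fold (log2 ratios of 1.10 to 1.19). That scaling moves the median of all miRNAs by 0.27 on the log2 scale and puts 16.8% of the 560 past 2-fold higher. The fold changes in the authors' deposited table do not follow those constants: for these members the log2 fold change of pOC over mOC was -0.83 to -0.92, so none is past 2-fold there. TMM scaling (edgeR) of the counts gave these members 0.83 to 0.92 for mOC over pOC, nearly the deposited values with the sign turned. The median log2 ratio of the members was 0.83, against 0.04 over the 560 and 0.19 over the 171. These counts describe 1 pair of libraries, and the members are not all independent of each other. Near-copies can share reads, the arms of miR-30a and of miR-30e come from common hairpins, and Mir30c-1 and Mir30e both lie within Nfyc.

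**Figure D2:**
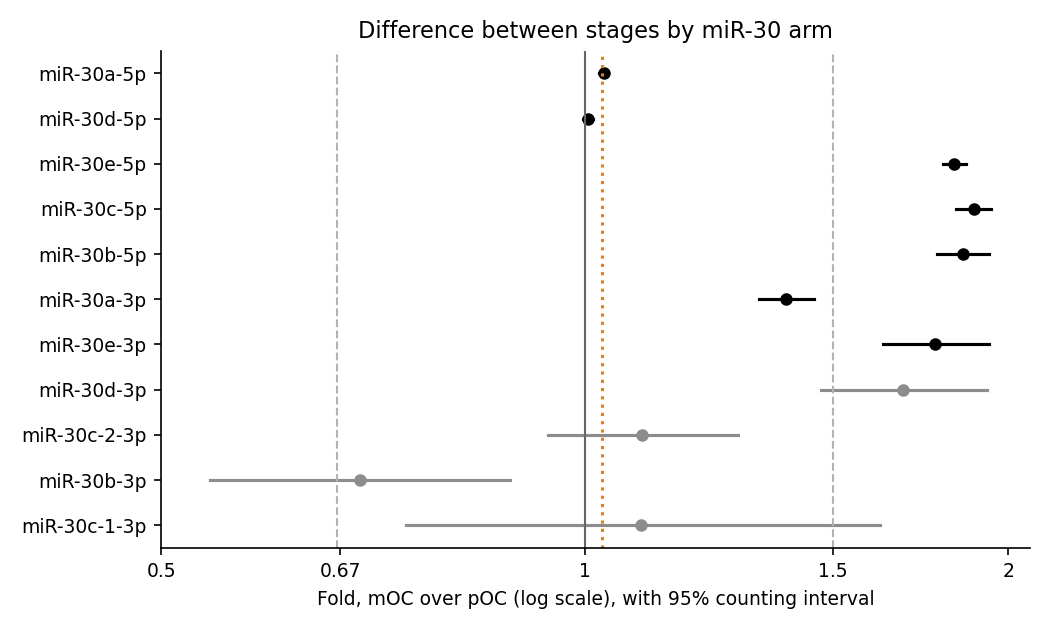
Fold of mOC over pOC on a log axis for 11 miR-30 arms, with 95% counting intervals; members are black, other arms grey, the solid line marks equality, the dashed lines 1.5-fold either way and the orange dotted line the median of the 560 miRNAs. miR-30a-5p lies at the median and miR-30d-5p at equality, and miR-30b-5p, miR-30c-5p, miR-30e-5p and miR-30e-3p lie between 1.77 and 1.89.

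Shares within the family do not depend on how the libraries are scaled. miR-30a-5p made up 45.3% of the 5p members' counts in mOC (45.1 to 45.5%) and 48.4% in pOC (48.2 to 48.6%). miR-30d-5p made up 38.1% in mOC (38.0 to 38.3%) and 41.8% in pOC (41.6 to 42.0%). The remaining 3 members together held 16.6% in mOC (16.5 to 16.7%) and 9.88% in pOC (9.76 to 9.99%). The 5p pool was led by the same 2 members at both stages, with a larger minority from the other 3 in mOC.

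By member, miR-30e-5p took 9.91% of the pool in mOC and 5.96% in pOC. miR-30c-5p took 4.69% in mOC and 2.74% in pOC. miR-30b-5p took 1.99% in mOC and 1.18% in pOC. The odds of a 5p count belonging to these members were 1.70 (miR-30b-5p) to 1.75 times (miR-30c-5p) as high in mOC as in pOC. For the near-copies that differ at C13U, there were 4.57 counts of miR-30a-5p per count of miR-30e-5p in mOC, against 8.12 in pOC. Summed, so that reads moving between them do not matter, miR-30a-5p and miR-30e-5p had a fold of 1.12 (1.11 to 1.13). This sum does not cover reads shared with miR-30b-5p or miR-30d-5p, whose sequences were not matched. Over all 5p members the fold was 1.10.

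**Figure D3:**
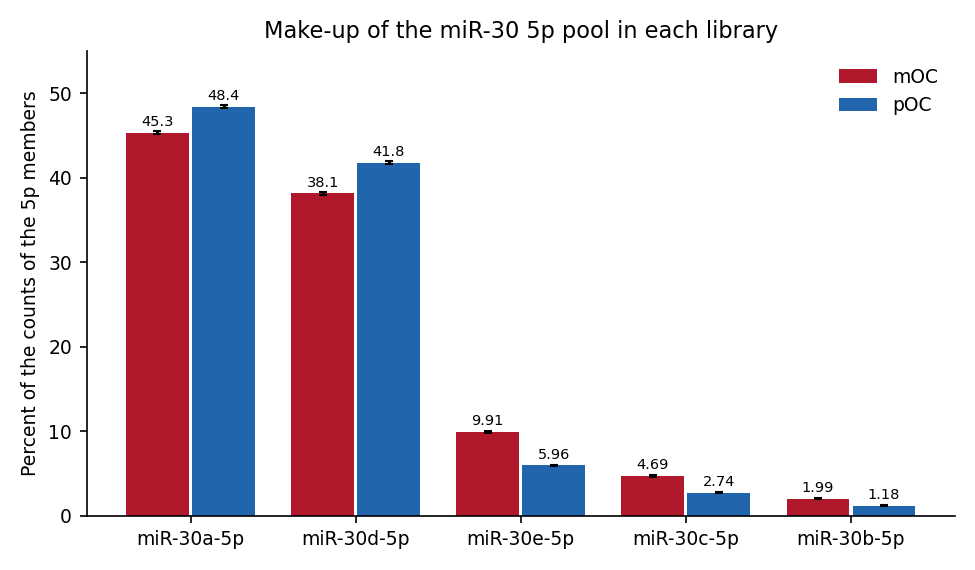
Percent of the counts of the 5 miR-30 5p members held by each member, mOC bars left of pOC bars, with exact 95% binomial intervals. miR-30a-5p and miR-30d-5p hold 83.4% of the pool in mOC and 90.1% in pOC, and miR-30e-5p, miR-30c-5p and miR-30b-5p fill the rest.

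The balance of 5p and 3p arms from 1 hairpin is likewise free of scaling, and it did not move the same way over the family. Mir30e kept its balance: there were 20.7 counts of miR-30e-5p per count of miR-30e-3p in mOC (19.7 to 21.8), against 20.1 in pOC (18.7 to 21.7), and the ratio of these ratios was 1.03 (0.945 to 1.13). For Mir30a the 5p arm was 30.3 times as abundant as the 3p arm in mOC (29.5 to 31.2), against 40.9 times in pOC (39.4 to 42.4). The 3p arm made up 3.19% of this hairpin's counts in mOC and 2.39% in pOC. The ratios of Mir30a and Mir30e rest on the uncertain division of reads between their near-copies, in both arms.

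The other hairpins include arms outside the 7 members. miR-30d-3p had 681 counts in mOC and 313 in pOC, a fold of 1.68 (1.47 to 1.93), while its partner miR-30d-5p was level. There were 201 counts of miR-30d-5p per count of the 3p arm in mOC (187 to 217), against 337 in pOC (302 to 378), the most one-sided hairpin of the family in either library. Mir30a and Mir30d, the hairpins of the level 5p members, thus both had relatively more 3p arm in mOC.

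Mir30b and the Mir30c hairpins went the other way. miR-30b-3p had 128 counts in mOC and 143 in pOC, and it was the only arm with at least 10 counts that was lower in mOC, with a fold of 0.693 (0.541 to 0.885). The 5p arm of Mir30b was 55.9 times as abundant as the 3p arm in mOC (46.9 to 67.1), against 20.9 times in pOC (17.6 to 24.8). miR-30c-1-3p had 68 counts in mOC and 48 in pOC, with a fold of 1.10 (0.747 to 1.62). miR-30c-2-3p had 399 counts in mOC and 281 in pOC, with a fold of 1.10 (0.941 to 1.28). Neither of these 3p arms, which tell the hairpins apart, differed beyond counting error while their common 5p arm was 1.89-fold higher. Over both hairpins there were 36.2 counts of miR-30c-5p per 3p count in mOC (33.0 to 39.7), against 21.0 in pOC (18.8 to 23.6).

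Within the Nfyc intron pair, the 3p arm of Mir30e was 1.77-fold higher in mOC, and the upper bound of its neighbour miR-30c-1-3p (1.62) lies just under its lower bound (1.63). Within the chromosome 1 pair, the 3p arms of Mir30a and Mir30c-2 had folds of 1.39 and 1.10, with intervals that do not meet. miR-30f is annotated on the strand opposite Mir30e, where it overlaps miR-30e-3p by 19 bases. It had 4 counts in mOC and 2 in pOC, too few for a fold.

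**Figure D4:**
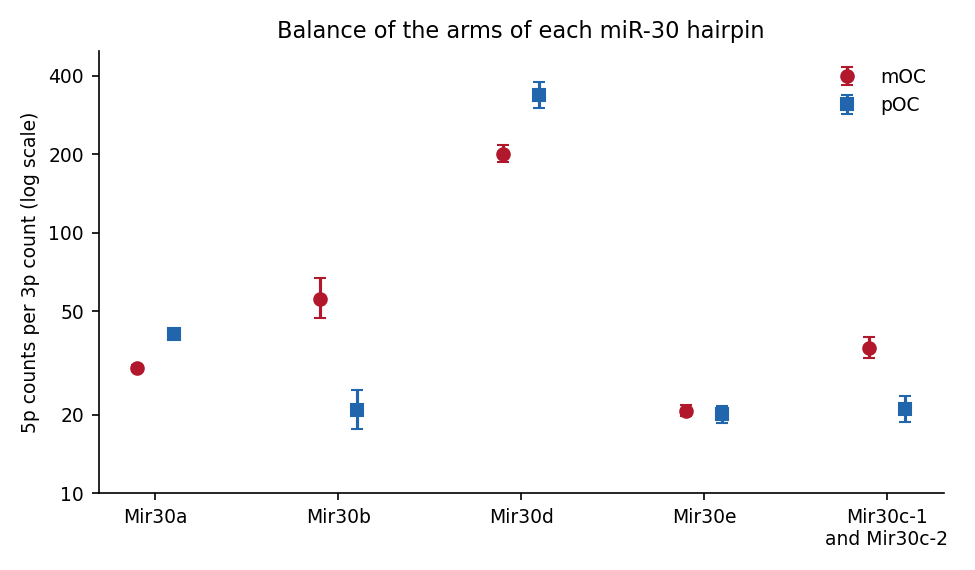
Counts of the 5p arm per count of the 3p arm, on a log axis, for each miR-30 hairpin (Mir30c-1 and Mir30c-2 share their 5p arm and are drawn as one), mOC as circles left of pOC as squares, with exact 95% binomial intervals. The ratio is lower in mOC for Mir30a and Mir30d, higher in mOC for Mir30b and the Mir30c hairpins, and level for Mir30e.

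Both stages were also set against the library headed R, through the authors' deposited table, which gives log2 fold changes with no interval. These comparisons share the library R. In the authors' deposited table miR-30c-5p stood at 0.05 for mOC over R and at -0.83 for pOC over R, which is 1.78-fold below R. In the authors' deposited table miR-30b-5p stood at 0.31 for mOC and -0.54 for pOC. In the authors' deposited table miR-30e-5p stood at 0.33 for mOC and -0.50 for pOC. For these members mOC lay level with or a little above R, and pOC below it.

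The 3p members had similar placings. In the authors' deposited table miR-30e-3p stood at 0.35 for mOC over R and -0.43 for pOC over R, and miR-30a-3p at -0.02 for mOC and -0.45 for pOC. The leading pair differed from these: in the authors' deposited table miR-30a-5p had -0.18 for mOC and -0.19 for pOC, and miR-30d-5p 0.27 for mOC and 0.31 for pOC. miR-30a-5p was thus slightly lower and miR-30d-5p slightly higher than in R at either stage.

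No member was 1.5-fold away from R in mOC in the authors' deposited table, where 26.6% of all 899 miRNAs were higher and 29.0% lower by that much. Of the 142 miRNAs with at least 1000 counts in mOC, 26 were higher and 15 lower by that much in the authors' deposited table. In pOC the authors' deposited table had 1 member, miR-30c-5p, lower by 1.5-fold and 0 higher, against 27.0% of all miRNAs lower and 28.1% higher. Among the 311 with at least 50 counts in pOC, 15.1% were lower by 1.5-fold according to the authors' deposited table. The members' median log2 fold change in the authors' deposited table was 0.27 for mOC and -0.45 for pOC, beside -0.08 for mOC and 0.003 for pOC over all miRNAs. Over miRNAs with at least 1000 counts in the stage, the medians in the authors' deposited table were 0.07 for mOC and -0.07 for pOC. By sign, 5 of 7 members were above R in mOC and 1 of 7 in pOC in the authors' deposited table, against 47.4% of all miRNAs in mOC and 50.4% in pOC. Of miRNAs with at least 1000 counts in the stage, 55.6% were above R in mOC and 43.8% in pOC. Abundant miRNAs thus leaned the same way as the members.

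Outside the 7 members, the 3p arms of Mir30b and of the Mir30c hairpins were placed differently from their 5p partners. In the authors' deposited table miR-30b-3p stood at 0.68 for mOC over R and 1.25 for pOC over R, and miR-30c-2-3p at 1.30 for mOC and 1.21 for pOC. miR-30c-1-3p stood at 0.69 for mOC and 0.60 for pOC in the authors' deposited table. miR-30d-3p stood at -0.12 for mOC and -0.83 for pOC in the authors' deposited table, like the members of lesser abundance.

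**Figure D5:**
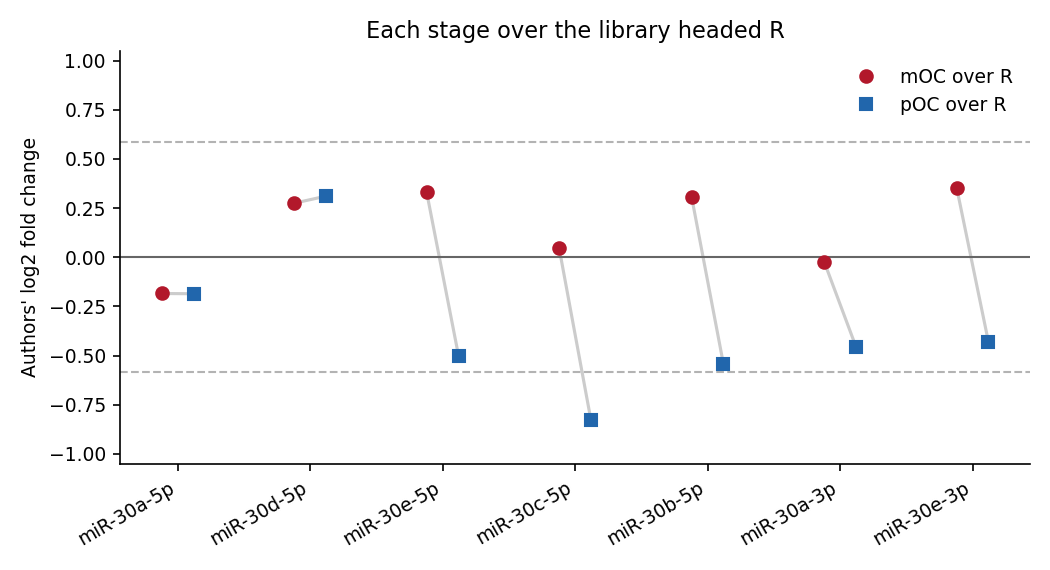
Log2 fold change over the library headed R from the authors' deposited table for each member, mOC as circles and pOC as squares, with dashed lines at 1.5-fold either way. miR-30a-5p and miR-30d-5p have the same placing at both stages, and the other 5 members lie lower in pOC, with miR-30c-5p past the line at -0.83.

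For comparison, the let-7 family of guide arms, which like miR-30 has many near-identical members and accumulates in differentiated cells, summed to 17.6% of the counts in mOC and 11.2% in pOC, a fold of 1.57 (1.56 to 1.57). Of its 9 members, 6 passed 1.5-fold in that direction, beside the 25.1% of abundant miRNAs given above. The 3 guide arms of the miR-29 family summed to a fold of 1.17 (1.16 to 1.18), with 1 of 3 at 1.5-fold higher. The miR-30 5p fold of 1.10 lies below both family sums, beyond counting error but with no replicate to test the difference. Members also differed within these families. The most abundant miR-29 arm, miR-29a-3p, had a fold of 1.16, beside 1.41 for miR-29b-3p and 1.59 for miR-29c-3p. The let-7 folds ran from 1.19 (let-7b-5p) to 2.97 (let-7f-5p), with the most abundant, let-7i-5p, at 1.53. Outside the family, the miRNAs whose pattern was most like that of the summed 5p members were sought among 122 with at least 1000 counts in each library. The measure was the distance in the log2 ratio of mOC over pOC and the authors' log2 fold change of pOC over R. The 5p point was 0.14 and -0.046, the second value being a mean of the 5p members weighted by counts. That mean falls between miR-30a-5p (-0.19) and miR-30d-5p (0.31), so it describes no single member, and least the 3 less abundant ones. The nearest were miR-425-5p (distance 0.07), miR-20a-5p (0.07), miR-185-5p (0.07), and miR-199b-3p and miR-199a-3p (0.09 each), over these 3 libraries. miR-199b-3p and miR-199a-3p have the same mature sequence and equal counts, so they are not separate hits.

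Markers of cell types moved between the same libraries. All 5 myeloid markers were detected, and they summed to 9757 CPM in mOC and 5991 CPM in pOC, most of it miR-142a-5p. Of these, miR-142a-3p (fold 5.99) and miR-223-3p (fold 3.55) were at least 2-fold higher in mOC. miR-142a-5p had a fold of 1.42, miR-223-5p of 1.41 and miR-155-5p of 1.03. Erythroid markers summed to 299 CPM in mOC and 842 CPM in pOC, with 4 of 5 at least 2-fold lower and miR-144-3p at a fold of 0.821. Liver or serum markers summed to 952 CPM in mOC and 2768 CPM in pOC, with miR-122-5p more than 2-fold lower, miR-192-5p at a fold of 0.604 and miR-194-5p at 1.70. Stromal markers summed to 1178 CPM in mOC and 1231 CPM in pOC, with 5 of the 7 that had 10 counts at least 2-fold lower. Most of both sums was miR-199a-3p, at 953 CPM in mOC and 895 CPM in pOC (fold 1.06), and miR-199a-5p had a fold of 1.24. miR-214-5p had 1 count in mOC and 0 in pOC. Epithelial markers summed to 157 CPM in mOC and 69.8 CPM in pOC. Of the 5 that had 10 counts, 4 were at least 1.5-fold higher, 3 of them at least 2-fold, and miR-141-3p had a fold of 0.415. Endothelial markers summed to 95.05 CPM in mOC and 153 CPM in pOC, but went opposite ways, with miR-126a-3p at a fold of 0.576 and miR-126a-5p at 1.21. Muscle markers summed to 8.26 CPM in mOC and 19.9 CPM in pOC, and the lymphoid marker to 2.85 CPM in mOC and 3.13 CPM in pOC. The part of any such source in the miR-30 values was not tested. The messenger RNAs that define osteoclasts are not among these miRNA tables, so the stages were not checked against them.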

How the data were processed

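The authors deposited 9 tables, 3 for each comparison. Per the file headers, they hold raw read counts per mature miRNA, normalised counts, and the authors' log2 fold change and fold (ratio). The normalised counts, treated as a score, are raw counts over a deposited constant per library (5139860 for mOC and 4803435 for pOC) times 1000000, so they are not CPM. Per the submitters' processing notes, FastQC, HISAT2 and StringTie were used with GRCm38. The sources used here do not give the trimming or the handling of reads with several matches. Columns were matched to samples by name. R matched none, and 32 of 36 per-sample columns (R and repeats) were not used. The planned comparisons with BMM were therefore not made, and the deposited fold changes over R stand in their place.

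Counts were scaled to library totals in Python 3.11.15 with SciPy 1.17.1. Log2 ratios took a pseudocount of 1 count, and folds took Clopper-Pearson intervals. These intervals were checked only on simulated counts with counting error, without PCR copies or spread between cultures. edgeR 4.0.16 gave TMM and median-of-ratios scaling. Arm ratios between libraries took a log-normal interval. Background shares used miRNAs with at least 10 counts. Members and lists were chosen with earlier results of these data known. Named are all miR-30 arms, sharers of the seed and the 5 miRNAs of most similar pattern.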

Additional observations from a re-analysis of the deposited data

Results flagged for a closer look

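For 4 members the stages lay on opposite sides of the library headed R in the authors' deposited table, with 1 library each. miR-30b-5p had a log2 fold change of 0.31 for mOC and -0.54 for pOC. miR-30c-5p had 0.045 for mOC and -0.83 for pOC. miR-30e-5p had 0.33 for mOC and -0.50 for pOC. miR-30e-3p had 0.35 for mOC and -0.43 for pOC. Of all 899 miRNAs, 34.8% lay on opposite sides and 14.7% above R in mOC and below it in pOC, or 21.5% of the 289 with at least 50 counts in each stage. miR-30c-5p is nearly level with R in mOC. The stages share R, and the difference between them was not tested with replicates.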

How the results depend on the processing

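No paired analysis was possible because each group is 1 library, and for the same reason no replicate could be left out. TMM scaling, no count minimum and a pseudocount of 0.5 left every log2 ratio of mOC over pOC within its counting interval and 4 of 7 members at 1.5-fold. Median-of-ratios scaling put the summed 5p members at 0.13 and miR-30d-5p at -0.0014. With the authors' constants the log2 ratios were 0.32 for miR-30a-5p, 0.75 for miR-30a-3p, 1.16 for miR-30b-5p, 1.19 for miR-30c-5p, 0.28 for miR-30d-5p, 1.14 for miR-30e-5p, 1.10 for miR-30e-3p and 0.41 for the 5p sum. The members' median was then 1.10, with 5 members past 1.5-fold and 4 past 2-fold, beside 34.1% and 16.8% of all miRNAs with 10 counts. With totals that leave out the 5 most abundant miRNAs, the ratios were -0.016 for miR-30a-5p, -0.054 for miR-30d-5p, 0.86 for miR-30c-5p, 0.81 for miR-30e-5p and 0.078 for the 5p sum. The signs of the leading pair thus depend on the scaling, those of the other 5 members on none tried. In a sum chosen after seeing the data, without miR-30a-5p and miR-30d-5p, the 5p ratio was 0.89. Among miRNAs with at least 50 counts, 22.9% were 1.5-fold higher in mOC than in R in the authors' deposited table.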

Other observations

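Rows with the same mature sequence bear on reads that match several rows exactly, not on reads with a mismatch. Of 793 rows with a RefSeq sequence, 2 pairs have identical sequences, and both pairs list equal counts in each library. miR-199a-3p and miR-199b-3p each have 6687 counts in mOC and 4862 in pOC, and let-7a-1-3p and let-7c-2-3p each have 2248 in mOC and 1122 in pOC. Equal counts do not tell whether such reads were counted in full for each row or split evenly. The near-copies among the miR-30 members with a matched sequence have unequal counts. That does not show how reads with a mismatch were divided between them. miR-30c-5p has a single row for its 2 hairpins.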
